A study of Mus musculus with 36 samples.

Results

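The endothelial genes of muscle vessels followed here were *Icam2*, *Pecam1*, *Cdh5*, *Kdr*, *Flt1*, *Tek*, *Tie1*, *Eng* and *Vwf*, together with *Vegfa*, the ligand of the receptors encoded by *Kdr* and *Flt1*. They were found by gene symbol in the annotation of the arrays. Of the 10 listed genes 9 were measured, each by 1 oligonucleotide printed as 2 spots, of 8129 oligonucleotides in all. *Vwf*, which encodes von Willebrand factor, is not named on the array and was not analysed here. The expression data came from quadriceps muscle of mice deficient for beta-sarcoglycan (BSG) or gamma-sarcoglycan (GSG), killed at 9 ages (1, 2.5, 4 and 6 weeks, then every 2 weeks up to 14 weeks, and at 20 weeks), with 2 mice per age and strain. Each strain lacks its sarcoglycan at every age and in the whole animal, and no untreated wild-type group was analysed here, so ageing and disease cannot be told apart in any value below. The mice of a strain and age were mostly from 1 litter and were killed at the same time of day, which varied between ages and strains, so litter and time of day cannot be told apart from age either, and the spread between mice is mostly that within a litter. The sex of the mice is not given in the sources used here.

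Blood vessels of muscle are lined by endothelial cells, which hold together through junction proteins and respond to vascular endothelial growth factor through the receptor kinases KDR and FLT1. The angiopoietins act on a second receptor kinase, TEK, whose relative TIE1 modulates its signal. In the weeks after birth the capillary bed grows with the fibres and then becomes quiescent. Sarcoglycans are part of the dystrophin-associated complex of muscle fibres, and beta-sarcoglycan is also made in the smooth muscle of vessels.

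The 36 arrays had 2 channels and formed 4 closed loops, 2 per strain, with 9 mice of different ages in each loop. On 8 arrays of a loop the older mouse was labelled with Cy5 and the mouse of the preceding age with Cy3, and on the remaining array the mouse of 1 week (Cy5) was set directly against that of 20 weeks (Cy3). The values are log2 ratios of the channels, so they give differences between ages and no level of expression, and no order of levels between the genes. The direction of the ratio is not stated in the sources used here and was taken as Cy5 over Cy3, which is likely since *Dlk1* then falls after 1 week. They were joined by least squares into the value of each mouse relative to the 1-week mouse of its loop, and all values of a loop therefore share 1 reference mouse. Differences are given on the log2 scale with standard errors (SE) from limma over 36 arrays, and a gene was called where p, adjusted over 8129 oligonucleotides by the method of Benjamini and Hochberg, was under 0.05. As each array held 2 ages of 1 strain, the arrays cannot show the missing sarcoglycan. The duplicate spots of an array correlated over all oligonucleotides with r between -0.10 and 0.77 (median 0.54), and 9 arrays had r below 0.3, 4 each in the first loop of BSG and of GSG and 1 in the second loop of GSG. The same amount of amplified RNA was hybridised per target, so each value is relative to all RNA of the muscle. In bulk muscle, fewer endothelial cells, less RNA per cell and more RNA from other cells cannot be told apart.

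The table of promoters from RefSeq (GRCm38.p6) holds 6 of the members. Endothelial promoters are known for sites of the ETS factors, whose core is GGAA. The 250 bases before the start site of *Tie1* and *Eng* are shown with every GGAA, read on either strand, in capitals, because for these receptors the window lies wholly before the annotated gene. They are at chr4:118489850-118490099 on the minus strand and at chr2:32646345-32646594 on the plus strand.
Tie1: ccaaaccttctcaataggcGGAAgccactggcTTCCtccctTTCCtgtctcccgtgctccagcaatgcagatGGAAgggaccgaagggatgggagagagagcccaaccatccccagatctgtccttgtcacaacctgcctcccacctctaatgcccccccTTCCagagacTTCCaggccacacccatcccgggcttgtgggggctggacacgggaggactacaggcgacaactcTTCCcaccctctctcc
Eng: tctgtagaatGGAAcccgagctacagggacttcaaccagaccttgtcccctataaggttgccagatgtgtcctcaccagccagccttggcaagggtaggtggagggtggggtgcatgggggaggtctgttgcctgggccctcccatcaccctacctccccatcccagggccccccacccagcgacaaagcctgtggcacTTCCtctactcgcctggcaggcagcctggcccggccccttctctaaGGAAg
The core stood 7 times in the window of *Tie1* and 3 times in that of *Eng*. It is common: 93.4% of the 32851 promoters of the table hold at least 1 core, with a median of 3, and 3.82% hold at least 7. The windows of *Kdr* and *Flt1* hold 4 cores each and that of *Tek* holds 2. The counts describe the letters of these windows.

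At 20 weeks *Icam2* was lower than at 1 week in both strains and was the only one of the 9 members called in either strain. *Icam2* encodes an adhesion molecule of endothelial cells that binds leukocyte integrins. Relative to the 1-week mouse of its loop, *Icam2* at 20 weeks was at -1.45 and -0.81 in the 2 BSG mice and at -0.67 and -0.92 in the 2 GSG mice. All 4 values lay below 0, and BSG loop 1 was the lowest. The difference was -1.13 ± 0.19 (SE) in BSG, a level 2.19-fold lower (limma, adjusted p = 0.00300), and -0.79 ± 0.19 in GSG, 1.73-fold lower (adjusted p = 0.0176). Among all oligonucleotides 0.849% were called lower and 0.431% higher in BSG, and 3.03% lower and 0.713% higher in GSG. Of the members 1 of 9 was therefore called lower and 0 higher in each strain. At an unadjusted p under 0.05 there were 5 of 9 members in BSG and 7 of 9 in GSG. Of all 8129 oligonucleotides there were 944 and 1196, a smaller share than among the members.

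**Figure D1:**
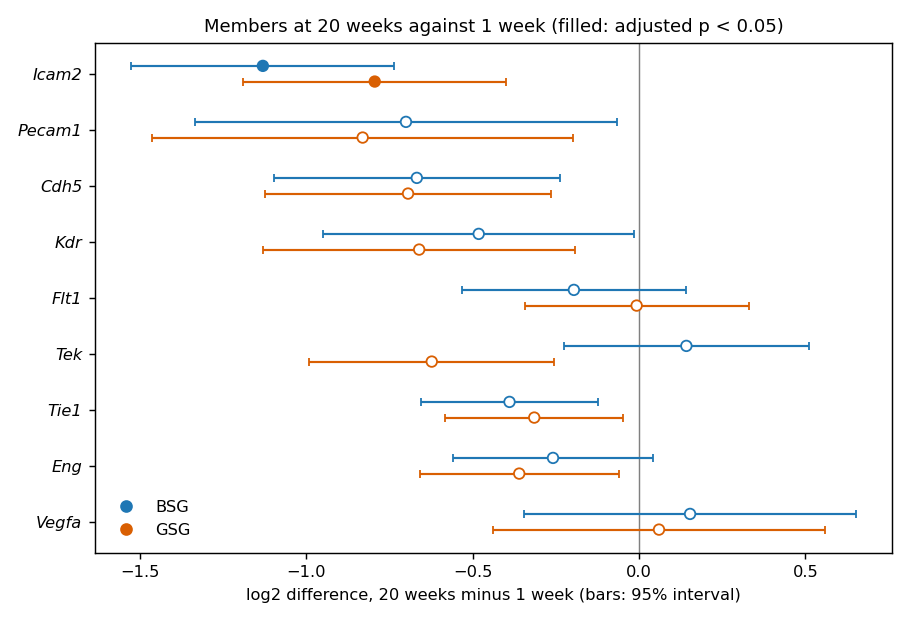
Log2 difference between 20 weeks and 1 week (x axis) for the 9 measured members (y axis) in BSG and GSG, with 95% intervals from limma over 36 arrays; filled points have an adjusted p under 0.05. *Icam2* is filled in both strains, at -1.13 and -0.79, and *Tek* differs most between the strains, at 0.14 in BSG and -0.62 in GSG.

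Over all later ages, 20 weeks included, *Icam2* was below the 1-week mouse of its loop in 32 of 32 mice. The mice of a loop share 1 reference mouse, so these are not independent comparisons. In the first BSG loop the later values ran from -1.52 at 14 weeks to -0.28 at 2.5 weeks, with a median of -1.06. In BSG loop 2 they ran from -0.82 at 4 weeks to -0.35 at 2.5 weeks, with a median of -0.79, and in BSG the difference at 4 weeks was -1.08 ± 0.25, which was not called (adjusted p = 0.316). In GSG the lowest value of either loop was that at 20 weeks, and the medians of the later ages were -0.45 and -0.72. The 2 mice of an age differed with an SD of 0.26 in BSG and 0.19 in GSG, near the medians over all oligonucleotides (0.22 in each strain). The duplicate spots of *Icam2* correlated over the 36 arrays with r = 0.76, against a median of 0.32 over all oligonucleotides.

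**Figure D2:**
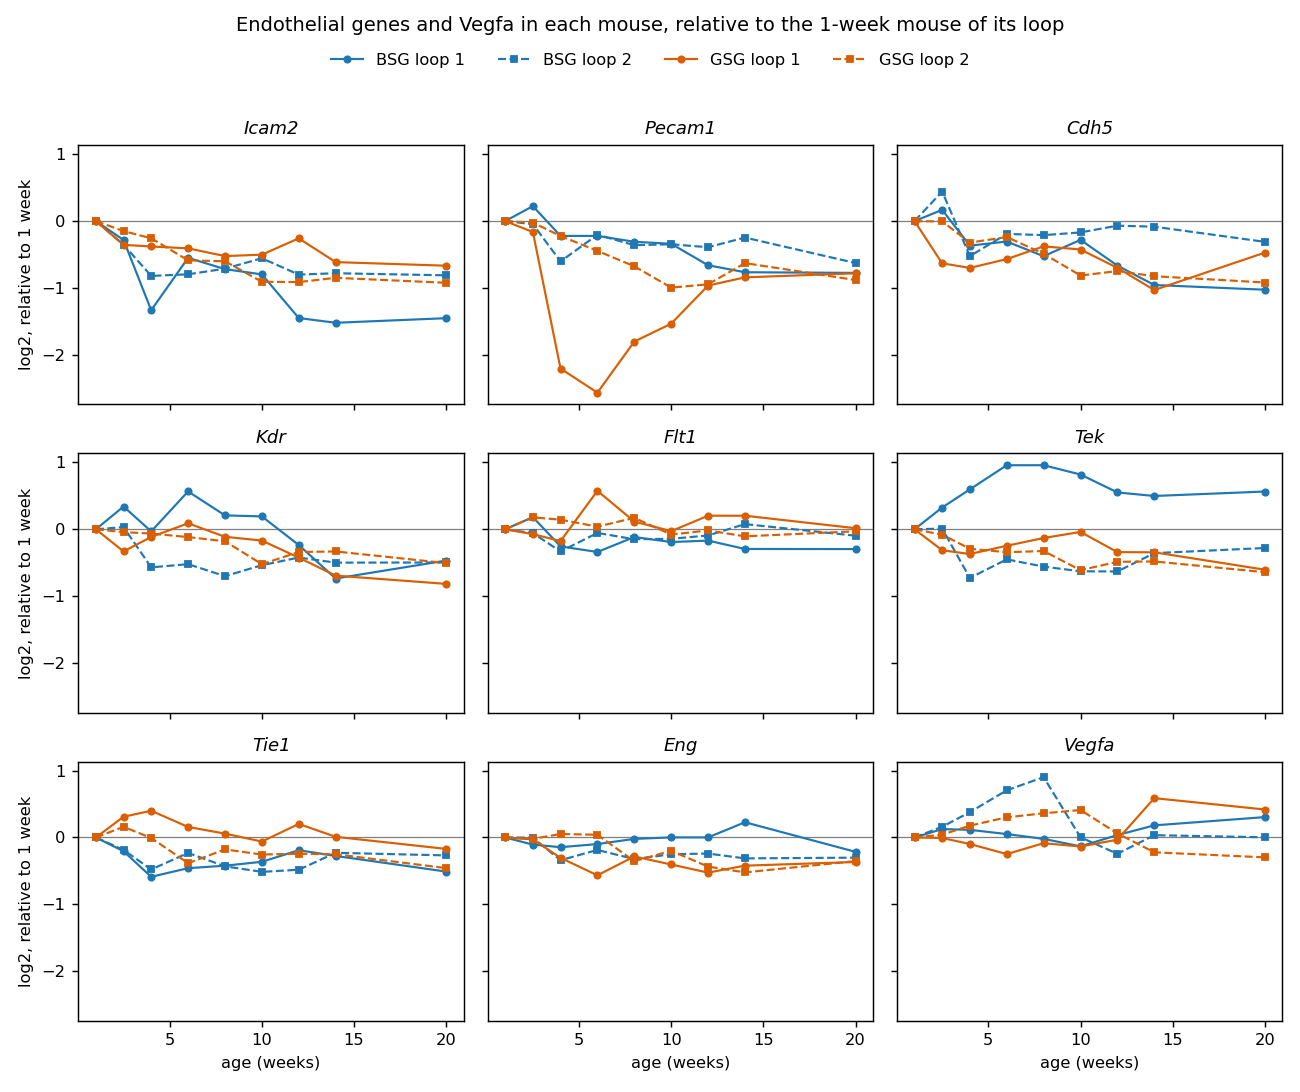
Log2 value of each mouse (y axis) relative to the 1-week mouse of the same loop against age in weeks (x axis), for the 9 measured members; each line is 1 loop of 9 mice. All later values of *Icam2* lie below 0, *Tek* in BSG loop 1 lies above 0 at every later age, and *Pecam1* in GSG loop 1 dips to -2.56 at 6 weeks.

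The *Icam2* difference rested mostly on 1 array per loop. By the layout of a loop, 88.9% of the weight of a 20-week value comes from the array that sets 1 week directly against 20 weeks, and 11.1% from the sum of the 8 stepwise arrays. The direct arrays gave -1.48 and -0.93 in BSG and -0.80 and -1.09 in GSG for 20 minus 1 week. The sums of the 8 steps gave -1.19 and 0.16 in BSG and 0.42 and 0.39 in GSG. Thus both routes were below 0 in BSG loop 1 alone, and in the other 3 loops the steps added up to values above 0. A constant dye effect of an oligonucleotide enters the steps and the direct array with opposite sign relative to age and cancels in the fitted values. The raw sum of the 8 steps holds it 8 times, so its sign alone does not show the direction of the change. The mean of the 9 arrays of a loop, which estimates it, was 0.03, 0.12, 0.14 and 0.16 for *Icam2*, and over all oligonucleotides these loop means correlated between loops with r from 0.46 to 0.83. Without the 4 direct arrays, age and such an effect cannot be told apart, and the difference of *Icam2* was then -0.51 in BSG and 0.40 in GSG (adjusted p = 0.504 and 0.599).

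For *Dlk1*, an imprinted gene of newborn muscle, the direct arrays (-3.23, -2.84, -3.18 and -4.04) and the sums of steps (-3.82, -2.53, -2.56 and -3.44) were below 0 in all 4 loops. Over all oligonucleotides, with the dye effect taken from the other 3 loops, the routes correlated with r = 0.30 and -0.02 in BSG and 0.05 and 0.19 in GSG. An error in that dye effect enters the routes with opposite sign and lowers r. The correlation therefore cannot show how much change with age the routes share. Loops and settings also moved the call of *Icam2*. With a loop left out, its strain has 1 mouse per age and the spread comes mostly from the other strain, which the 2 strains are then assumed to share. Without BSG loop 1 its BSG difference was -0.81 (adjusted p = 1.00). Without GSG loop 1 or 2 its GSG difference was -0.92 or -0.67 (adjusted p = 0.109 and 0.527). The GSG call was also lost with 1 value per animal and the loop as a replicate block (adjusted p = 0.0856), with the arrays scaled (0.0510) and with the second spots alone (0.0660).

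**Figure D3:**
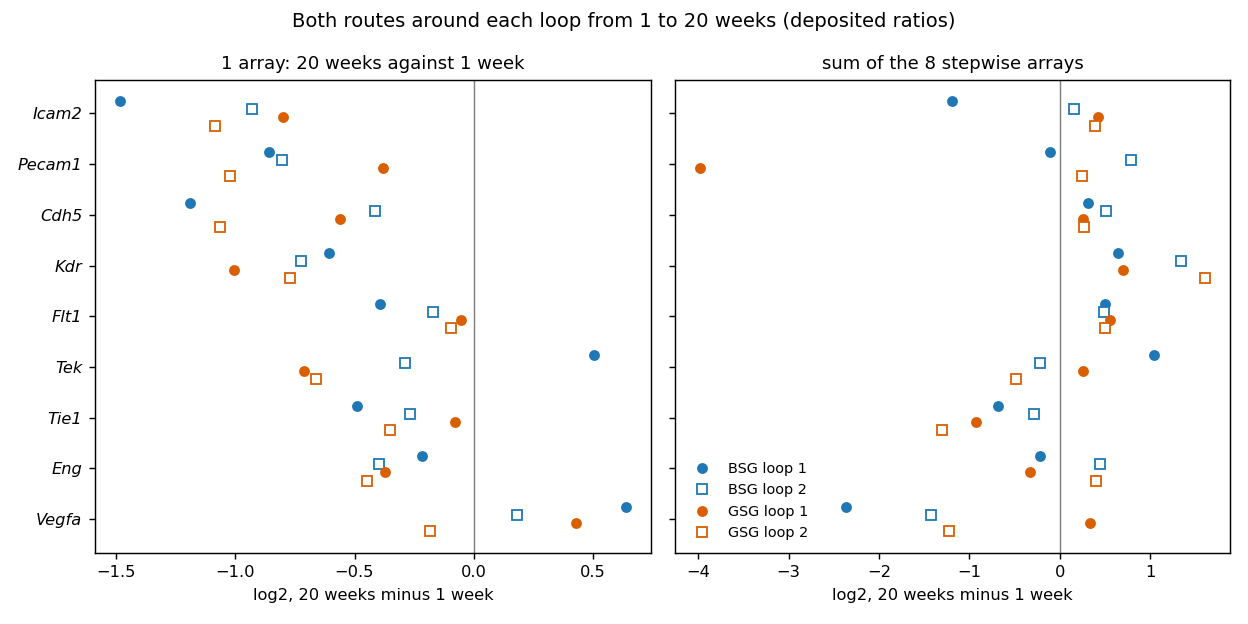
Log2 value of 20 minus 1 week (x axis) for each member (y axis) by the 1 direct array of each loop (left) and by the sum of its 8 stepwise arrays (right), as deposited ratios with the spots averaged; points are the 4 loops. For *Cdh5*, *Kdr* and *Flt1* the direct arrays lie below 0 and the sums above 0 in every loop, and for *Tie1* both lie below 0 in every loop. A constant dye effect is not removed here and enters each sum 8 times.

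The junction genes *Cdh5*, which encodes VE-cadherin, and *Pecam1*, which encodes CD31, had differences of similar size that were not called. *Cdh5* at 20 weeks was at -1.03 and -0.31 in the BSG mice and at -0.47 and -0.92 in the GSG mice. For BSG the difference was -0.67 ± 0.21 (adjusted p = 0.126) and for GSG -0.69 ± 0.21 (adjusted p = 0.0635). With a dye term per strain, which leaves the estimates as they are and changes the spread, *Cdh5* was called in GSG (adjusted p = 0.0270). *Pecam1* was at -0.77 and -0.63 in BSG and at -0.78 and -0.88 in GSG at 20 weeks. These 4 values were close together, yet the differences of -0.70 ± 0.31 in BSG and -0.83 ± 0.31 in GSG were not called (adjusted p = 0.370 and 0.153), where the residual SD of *Pecam1* (0.49) was above the median of all oligonucleotides (0.31). The 20-week value of GSG loop 1 joined a direct array of -0.38 and steps that summed to -3.98. That direct array, read as 1 against 20 weeks, had spots of 1.22 and -0.46. By the first spots alone the GSG difference was -1.26, and by the second spots alone -0.40. The dip of *Pecam1* in GSG loop 1, from -0.16 at 2.5 weeks to -2.20 at 4 weeks, came from an array whose 2 spots read -4.46 and -0.43. This array is part of that sum. The other GSG loop went from -0.02 to -0.22 between these ages.

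Among the receptors for vascular endothelial growth factor, *Kdr* was at -0.47 and -0.50 in the BSG mice and at -0.82 and -0.51 in the GSG mice of 20 weeks. Its differences were -0.48 ± 0.23 and -0.66 ± 0.23 (adjusted p = 0.408 in BSG and 0.116 in GSG). The latter was called with a dye term (adjusted p = 0.0119). The steps and the direct array of *Kdr* were the farthest apart of the receptors: the steps summed to between 0.64 and 1.61, and the direct arrays lay between -1.005 and -0.61. These sums hold a constant dye effect 8 times. The loop means of *Kdr*, which estimate it, were 0.14 and 0.23 in BSG and 0.19 and 0.26 in GSG. The sign of the sums alone therefore does not show the direction of the change. *Flt1*, whose product binds the same ligand, was at -0.30 and -0.10 in BSG and at 0.02 and -0.03 in GSG, with differences of -0.20 ± 0.16 and -0.01 ± 0.16. *Vegfa* was at 0.30 and 0.00 in BSG and at 0.42 and -0.30 in GSG, so that the loops of GSG lay on opposite sides of 0. Its differences were 0.15 ± 0.24 and 0.06 ± 0.24, with 95% intervals from -0.35 to 0.65 in BSG and from -0.44 to 0.56 in GSG. The duplicate spots of *Flt1* and *Vegfa* did not follow each other over the arrays (r = -0.07 and -0.04), which limits what these oligonucleotides can show.

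*Tek*, the receptor of the angiopoietins, went in opposite directions in the BSG loops. In BSG loop 1 *Tek* was above the 1-week mouse at all 8 later ages, up to 0.96 at 8 weeks. In BSG loop 2 it was below it at 7 of 8 later ages, down to -0.73 at 4 weeks. In GSG *Tek* was below it in 16 of 16 later mice, between -0.64 and -0.04, and the 20-week mice were at -0.60 and -0.64. The difference was 0.14 ± 0.18 in BSG (adjusted p = 0.932) and -0.62 ± 0.18 in GSG, where the adjusted p of 0.0500317 lay just outside the threshold. *Tie1* was below the 1-week mouse in 16 of 16 later mice in BSG and in 9 of 16 in GSG. At 20 weeks it was at -0.51 and -0.27 in BSG and at -0.17 and -0.46 in GSG, with differences of -0.39 ± 0.13 (adjusted p = 0.170) and -0.31 ± 0.13 (adjusted p = 0.216). *Tie1* had the smallest SD between mice of an age of the members, 0.12 in both strains. *Eng*, which encodes endoglin, a co-receptor for transforming growth factor beta, was at -0.22 and -0.30 in BSG and at -0.37 and -0.35 in GSG. Its differences were -0.26 ± 0.15 and -0.36 ± 0.15 (adjusted p = 0.531 and 0.203). The duplicate spots of *Eng* correlated over the arrays with r = 0.19, below the median of all oligonucleotides (0.32). In BSG its difference was -0.09 by the first spots alone and -0.42 by the second spots alone.

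As a list, the members had a median of -0.39 for BSG and -0.62 for GSG, with 7 and 8 of 9 below 0, where over all oligonucleotides 53.2% and 51.9% were below 0 (medians -0.02 and -0.01). The mean of the 8 measured members other than *Vegfa* at 20 weeks was -0.52 and -0.40 in the BSG loops and -0.48 and -0.59 in the GSG loops. Over the mice, centred in each loop, *Cdh5* and *Icam2* followed the mean of the other members most closely (Pearson r = 0.79 and 0.78 over 36 mice), *Flt1* least of the endothelial genes (0.27), and *Vegfa* had r = -0.16. These centred values share the arrays of their loop, and the means at 20 weeks also share the 1-week reference. The oligonucleotides with 1 gene symbol whose profiles were most like the members' mean were those of *Kcne1l* (r = 0.89), *Col4a2* (0.87), which encodes a chain of basement membrane collagen, and *Shank3* (0.87).

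Averaged over the 5 ages from 8 to 20 weeks, 0 of 9 members were called against 1 week in either strain, where 0.0984% of all oligonucleotides were called in BSG and 0.603% in GSG. At an unadjusted p under 0.05 there were 2 of 9 members in BSG and 4 of 9 in GSG, against 612 and 701 of all 8129 oligonucleotides. For *Icam2* this average was -0.96 ± 0.22 in BSG and -0.67 ± 0.22 in GSG (adjusted p = 0.100 and 0.226). With 1 value per animal and the loop as a replicate block, *Icam2* was called in both strains and *Cdh5* in GSG. That setting takes the values of a loop as independent, although they were solved from shared arrays. The slope per time point from 2.5 to 20 weeks was called for 0 members (0% of all oligonucleotides in BSG and 0.0123% in GSG). In each strain 1 of 9 members had an unadjusted p under 0.05, against 186 and 327 of all 8129 oligonucleotides. These were *Icam2* in BSG (-0.09 ± 0.04 per time point) and *Tie1* in GSG (-0.06 ± 0.03). A moderated F test over the 8 later ages called 0 members, against 0.0984% of all oligonucleotides in BSG and 0.59% in GSG. Its unadjusted p was under 0.05 for 3 and 2 of 9 members, against 325 and 635 of all 8129 oligonucleotides. *Icam2* came closest in BSG (limma, adjusted p = 0.0656).

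The change of the members in RNA of whole muscle was then compared between the strains. Litter and time of day also varied between the strains, so a difference could not be assigned to the missing sarcoglycan. No member was called: 0 of 9 for the difference in the change from 1 to 20 weeks (0% of all oligonucleotides), 0 for the change to the mean of 8 to 20 weeks (0%) and 0 for the slope (0%). At an unadjusted p under 0.05 there were 1, 0 and 0 members, of 586, 288 and 128 of the 8129 oligonucleotides, so that 1 of 9 is near the share of all. The 1 member was *Tek*, with a BSG minus GSG difference of 0.76 ± 0.25 (limma, unadjusted p = 0.00575, adjusted p = 0.461). As the BSG loops of *Tek* disagree, it followed the loop: 0.34 without BSG loop 1 (adjusted p = 1.00) and 1.19 without BSG loop 2, where it passed the threshold (adjusted p = 0.0300) with 1 BSG mouse per age and a spread taken mostly from GSG. For *Icam2* the difference was -0.34 with a 95% interval from -0.90 to 0.22, and for *Cdh5* 0.03 with an interval from -0.58 to 0.63. The temporal Hotelling test, which compares polynomials of degree 2 over the time points, called 0 members (0% of all oligonucleotides), as did the non-temporal test of the 8 parameters (0%). At an unadjusted p under 0.05 there was 1 of 9 members in each, against 358 and 127 of all 8129 oligonucleotides. These were *Tek* in the temporal and *Tie1* in the non-temporal test (adjusted p = 0.989 and 1.00).

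Other genes of vessels were taken as lists. Of 33 other endothelial genes, 3 were called lower at 20 weeks than at 1 week in BSG and 7 in GSG. None was called higher in either strain. Over all oligonucleotides 0.849% were called lower in BSG and 3.03% in GSG. *Gja4*, which encodes the arterial gap junction protein connexin 37, fell in both strains, by 0.89 ± 0.16 in BSG and 0.77 ± 0.16 in GSG (limma, adjusted p = 0.00444 and 0.00467). The tetraspanin gene *Cd151* fell by 0.95 ± 0.15 in GSG (adjusted p = 0.000487), and the transcription factor genes *Sox17* and *Sox7* by 0.85 ± 0.16 and 1.03 ± 0.20 (adjusted p = 0.00222 and 0.00313). In BSG these 3 genes were at -0.48, -0.36 and -0.36 and were not called. The other BSG genes, named because the count is small, were *Cldn5*, which encodes the tight junction protein claudin 5 (-0.999 in BSG, -1.07 in GSG, called in both), and *Ramp2* (-0.94 in BSG). The call of *Cldn5* was lost in GSG without either GSG loop (adjusted p = 0.0918 and 0.151) and in BSG without BSG loop 1 or 2 or GSG loop 1 (adjusted p = 1.00, 0.0646 and 0.0827), and in BSG with the loop as a replicate block (0.116). Without the 4 direct arrays *Cldn5* was at -0.33 in BSG and 0.84 in GSG. The list had medians of -0.14 in BSG and -0.34 in GSG, and 21 and 25 of its 33 genes were below 0. The other genes were above 0, the highest being *Cd36* in BSG (1.12) and *Icam1* in GSG (0.79), neither of them called. Without GSG loop 2, the changes of *Cd151*, *Sox17*, *Sox7* and *Gja4* in GSG stayed below 0 and were not called, nor was that of *Gja4* in BSG without BSG loop 1. Without GSG loop 1, *Sox17*, *Sox7* and *Gja4* were just outside the threshold in GSG (adjusted p = 0.0588, 0.0597 and 0.0608). With 1 value per animal and the loop as a replicate block, *Gja4* was not called in either strain (adjusted p = 0.0924 and 0.0732).

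Of 23 oligonucleotides for 22 genes of vessel growth (ligands and receptors of the VEGF, angiopoietin, ephrin, Notch and apelin pathways, other receptors of endothelial cells, and transcription factors such as *Hif1a* and *Ets1*), 0 were called in BSG and 2 fell in GSG. *Ptprb*, which encodes the endothelial phosphatase VE-PTP that acts on TEK, fell by 1.15 ± 0.23 in GSG (adjusted p = 0.00339) and was at -0.40 in BSG. *Efnb2*, which encodes the arterial ligand ephrin B2, fell by 0.81 ± 0.17 in GSG (adjusted p = 0.00537) and was at -0.33 in BSG. Without GSG loop 2 these were at -0.92 and -0.79 and not called, and without the 4 direct arrays *Ptprb* was at 0.10. The ligands *Angpt1* and *Angpt2* lay between -0.02 and 0.04 in both strains, and *Angpt4* was at -0.10 in BSG and -0.38 in GSG. The shares called lower over all oligonucleotides were 0.849% in BSG and 3.03% in GSG. The list had medians of -0.10 and -0.06. Its values ran from -0.44 to 0.41 in BSG and from -1.15 to 0.38 in GSG.

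**Figure D4:**
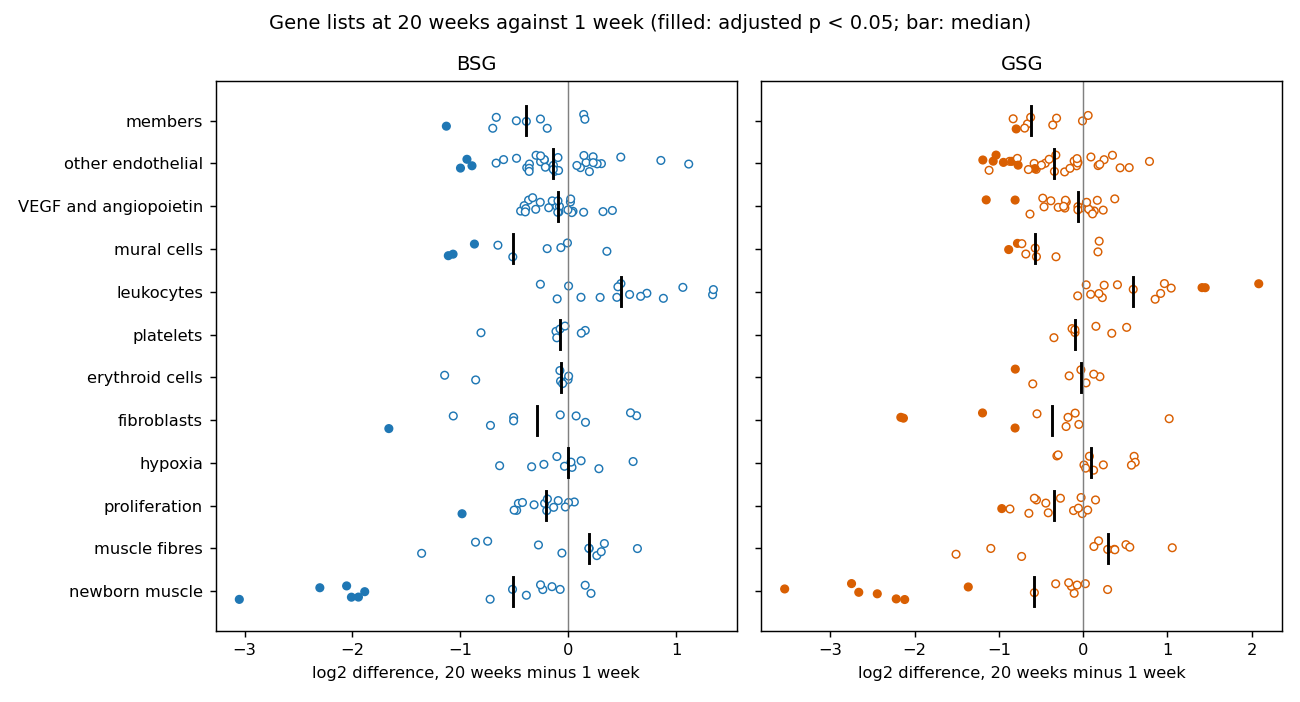
Log2 difference between 20 weeks and 1 week (x axis) for the oligonucleotides of each gene list (y axis) in BSG (left) and GSG (right); filled points have an adjusted p under 0.05 and the bar is the median of the list. The median of the members (-0.39 and -0.62) lies below that of the other endothelial genes (-0.14 and -0.34), and leukocyte genes lie mostly above 0.

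Markers of other cells moved over the same interval, and their part in the values of the members was not tested. The counts here and in the next paragraph stand beside these shares of all oligonucleotides. In BSG 0.849% were called lower and 0.431% higher, and in GSG 3.03% lower and 0.713% higher. Of 9 genes of pericytes and vascular smooth muscle, 3 fell in BSG (*Kcnj8*, *Smtn* and *Notch3*) and 2 in GSG (*Kcnj8* and *Notch3*), with list medians of -0.51 and -0.57. *Kcnj8*, which encodes a potassium channel subunit of pericytes, fell by 1.07 ± 0.20 and 0.88 ± 0.20 (adjusted p = 0.0113 and 0.0133). It was not called with the loop as a replicate block (adjusted p = 0.142 and 0.168), in BSG without BSG loop 1 (1.00), or in GSG without any 1 of the 4 loops (0.0538 to 0.0949). Of 15 leukocyte genes, 0 were called in BSG and 3 rose in GSG, *Mpeg1*, *Cd68* and *Itgb2*, which mark macrophages and other myeloid cells, with list medians of 0.49 and 0.60. *Pecam1* is also made by platelets and leukocytes: of 7 platelet genes 0 were called in either strain (medians -0.08 and -0.10).

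Of 7 erythroid genes 0 were called in BSG and 1 fell in GSG (*Alas2*), and of 10 fibroblast oligonucleotides 1 fell in BSG (*Col1a1*) and 4 in GSG (*Col1a1*, *Postn*, *Sparc* and *Fbln1*), with list medians of -0.29 and -0.37. The collagen genes of this list lay on opposite sides of 0, *Col1a1* at -1.66 and -2.13 and *Col3a1*, which was not called, at 0.58 and 1.02. Of 14 proliferation genes 1 was called lower in each strain, *Mcm2* in BSG and *Cdk1* in GSG. In each strain 12 of the 14 were below 0, with list medians of -0.21 and -0.34. Over all oligonucleotides 53.2% in BSG and 51.9% in GSG were below 0. Of 15 oligonucleotides of newborn muscle 6 fell in BSG and 7 in GSG, with list medians of -0.52 and -0.58. This list served only to read the direction of the ratios and holds *Dlk1*, by which that direction was taken. Its fall is therefore no separate result. Of 10 genes induced by hypoxia, a state that raises *Vegfa* in many tissues, 0 were called in either strain (medians -0.01 and 0.10), and of 11 muscle fibre genes 0 were called (medians 0.19 and 0.29).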

How the data were processed

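RNA from quadriceps of 36 mice was amplified, labelled and hybridised to 36 oligonucleotide arrays. The deposited values are log2 ratios per spot, which the authors made by removing spatial, dye and across-array effects (all.norm of the smida package) from GenePix intensities; the file does not hold the intensities. Neither the base nor the direction of the ratios is stated. They were taken as log2, since values reach -12.0 and 11.5, and as Cy5 over Cy3, which is likely because *Dlk1* then falls after 1 week. All columns were mapped to samples, and 0 values were missing. Duplicate spots (16416 in all) were averaged to 8129 oligonucleotides, of which 6752 have 1 gene symbol, without further filtering or normalisation. Groups came from the labels of strain and age, and the mice of an age were mostly littermates. The p-values measure the residual spread of the array ratios. The fit takes the arrays as independent, although neighbouring arrays of a loop share a mouse. A constant dye effect is part of that spread. The alternative with 1 value per animal fits the values of the mice instead. It takes them as independent, although the values of a loop were solved together from the same arrays. Its p-values for a mean or slope over neighbouring ages can therefore be too small.

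Age effects, 8 per strain, were fitted with limma (version 3.58.1, R 4.3.3; lmFit and eBayes, 20 residual degrees of freedom) over all arrays, and Hotelling tests were written from the equations of the study's methods, except that the non-temporal test has 8 parameters per strain (8 and 20 degrees of freedom) in place of 1 per time point, since ratios within a loop of 9 ages give 8 differences. The functions were tested on simulated data in this layout. The number of arrays limits the precision. Alternatives were 1 value per animal, the loop as a random replicate block, a dye term, centred or scaled arrays, single spots, arrays with discordant spots left out, strains fitted alone, no moderation, each loop left out and, chosen after seeing the data, the 4 direct arrays left out. The members, lists and tests were chosen with earlier results of these data known. Every measured member is named, with up to 4 called genes per list by adjusted p and the 3 oligonucleotides most like the members' mean. *Cldn5* and *Ramp2* were named after their values were seen, as were *Angpt1*, *Angpt2*, *Angpt4*, *Cd36*, *Icam1* and *Col3a1*. Figures were drawn with Python and matplotlib.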

Additional observations from a re-analysis of the deposited data

How the results depend on the processing

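At 20 weeks against 1 week, *Icam2* stayed below 0 in BSG under every alternative and was called under all except without BSG loop 1 and without the 4 direct arrays. In GSG the count of members called, 1 in the reported fit, was 4 with a dye term per strain and 4 with the loop as a random replicate block (*Icam2*, *Cdh5*, *Kdr* and *Tek* in both), and 2 with each strain fitted alone (*Icam2* and *Tek*). It was 0 with 1 value per animal and the loop as a replicate block, 0 with the arrays scaled and 0 with the second spots alone. With 1 loop left out it ranged from 0 to 2 in GSG and from 0 to 1 in BSG. The strain difference at 20 weeks and the F test in BSG had 0 to 1 members called with 1 loop left out (*Tek* and *Icam2*, both without BSG loop 2, which leaves 1 BSG mouse per age). The F test in BSG called 1 member with a dye term. For the mean of 8 to 20 weeks, BSG had 1 member with 1 value per animal, 1 with the random replicate block, 1 with the dye term and 1 without the direct arrays, and GSG had 2 with 1 value per animal. The slope in GSG called 1 member with 1 value per animal and 1 without the direct arrays, and the slope in BSG called 1 without them. For these changes between settings the cause was not tested, except where fewer arrays were fitted.

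Without the 4 direct arrays, a setting chosen after seeing the data in which age and a dye effect cannot be told apart, the 20-week differences changed sign in BSG for *Pecam1* (0.34), *Cdh5* (0.41), *Kdr* (0.99), *Flt1* (0.50), *Eng* (0.12), *Vegfa* (-1.90) and *Ptprb* (0.76). In GSG they did so for *Icam2* (0.40), *Cdh5* (0.26), *Kdr* (1.15), *Flt1* (0.53), *Eng* (0.036), *Vegfa* (-0.44), *Ptprb* (0.10) and *Cldn5* (0.84). The means of 8 to 20 weeks changed sign for *Cdh5* in BSG (0.38) and for *Icam2* and *Cdh5* in GSG (0.22 and 0.038). The members then called were *Vegfa* in BSG and *Tie1* in GSG, both lower. Elsewhere signs changed for *Flt1* in GSG with scaled arrays (0.00054) and, with 1 loop left out, for *Tek* in BSG (-0.28 to 0.56), *Flt1* in GSG (-0.030 to 0.016) and *Vegfa* in GSG (-0.30 to 0.42).

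Counts over all oligonucleotides at 20 weeks, 104 in BSG and 304 in GSG, were 16 and 145 with 1 value per animal, 190 and 464 with the random replicate block, 220 and 459 with the dye term, and 10 and 99 with scaled arrays. They were 47 and 153 with the first spots alone, 42 with the second spots in BSG, 19 in BSG without the arrays of discordant spots, 59 and 195 with each strain alone, 69 in BSG without moderation, and 1006 and 1369 without the direct arrays. With 1 loop left out they ranged from 1 to 266 in BSG and from 83 to 387 in GSG. Over all alternatives the counts for the mean of 8 to 20 weeks ranged from 1 to 1045 in BSG (reported 8) and from 3 to 1261 in GSG (49), for the slope from 0 to 628 (0) and from 0 to 977 (1), and for the F test from 1 to 62 (8) and from 12 to 239 (48). With 2 mice per age and strain and 1 direct array per loop, a member that was not called is not shown to be unchanged.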
